A study of Homo sapiens with 6 samples.

Results

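The genes described here are those that build and run the autophagosome and the lysosome: the subunits of the vacuolar H+-ATPase (V-ATPase), the cathepsins, the LAMP proteins, the autophagy machinery with its cargo receptors, and the transcription factors TFEB and TFE3. The rule goes by gene name and uses no measured value: names of the ATP6V0, ATP6V1, CTS, LAMP, ATG, GABARAP, MAP1LC3 and WIPI series, plus SQSTM1, NBR1, TFEB, TFE3, ULK1 and BECN1. The rule found 75 of the 58884 rows that carry a gene name. These 75 rows comprise 22 V-ATPase subunits, 15 cathepsins, 31 autophagy genes, 3 LAMP genes, TFEB and TFE3, and 2 pseudogene rows (ATG12P2 and ATG3P1) whose names also match. Of the 75, 61 reached 1 TPM (a length-corrected level set to a common total in every library) in at least 3 libraries and were tested.

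RNA was measured in HEK293FT cells, an established SV40 large T antigen-expressing line of the human embryonic kidney 293 family. Cells were given supernatant with secreted ISLR, a leucine-rich repeat and immunoglobulin-domain protein (3 libraries, titled ISLR), or supernatant from the empty vector control (3 libraries, titled NC). Both groups were exposed for 72 h, in DMEM with 10% FBS, and no further difference between them is given in the labels. Neither the cells that made the supernatants nor separate cultures for the libraries of a group are named there, so the p-values speak of library-to-library spread alone, which could be technical.

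The ISLR transcript went against the labels. Its level was 0, 0.02 and 0 TPM in replicates 1 to 3 labelled ISLR, against 510.32, 555.37 and 535.06 TPM in replicates 1 to 3 labelled NC. The cells received supernatant rather than the gene, and exchanged labels would turn every direction given here; groups are therefore called "labelled ISLR" and "labelled NC". All 8 markers of the HEK293 line reached 1 TPM in at least 3 libraries, and their summed level was 1556.1 to 1614.43 TPM in libraries labelled ISLR and 1405.72 to 1440.7 TPM in those labelled NC. Of these, PAX2 reached 1 TPM only in libraries labelled NC (1.17 to 1.5 TPM, against 0.81 to 0.95 TPM labelled ISLR). VIM held most of the sum, at 1245 ± 23 TPM labelled ISLR and 1128 ± 11 TPM labelled NC. Of 6 fibroblast markers, 2 reached 1 TPM in at least 3 libraries (sum 13.57 to 14.25 TPM labelled ISLR, 11.74 to 16.47 TPM labelled NC), and DCN, LUM, PDGFRA and COL1A2 stayed under 1 TPM. Of 6 haematopoietic markers, CD68 alone did so (list sum 12.39 to 12.57 TPM labelled ISLR, 7.44 to 8.57 TPM labelled NC), and CD68 encodes a lysosomal membrane protein. The part of these marker levels in the results was not tested. Fewer cells of a type and less RNA per cell cannot be told apart in such bulk samples.

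TPM values hold no depth, and their scale mattered here: over the 13869 tested genes the median log2 difference (labelled ISLR minus labelled NC) came to 0.22 as deposited and -0.01 after median-of-ratios scaling (each library divided by a factor that puts its typical gene at a common level). Differences are therefore given on both scales, as deposited first, on log2(TPM + 1), which understates the change of low genes. A gene is said to have risen or fallen in libraries labelled ISLR only where limma, with Benjamini-Hochberg adjustment over all tested genes, gave an adjusted p under 0.05 in the same direction on both scales. All 2380 genes higher after scaling were also higher as deposited, and all 1024 lower as deposited were also lower after scaling. A rise is thus the call after scaling and a fall the call as deposited, and the other scale removed no gene.

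Autophagy wraps cytoplasm in a double membrane and delivers it to the lysosome. The ULK1 complex and the BECN1-containing lipid kinase start the membrane, ATG9, ATG2 and WIPI proteins bring and recognise lipid, ubiquitin-like conjugation drives its growth, and receptors such as SQSTM1 bring cargo to it. The V-ATPase pumps protons into the lysosome, the acid activates cathepsin proteases, and LAMP proteins coat the membrane. TFEB and TFE3 are transcription factors that enter the nucleus under starvation or lysosomal stress and bind CLEAR elements, which hold the E-box CACGTG, at many of these genes.

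That E-box was looked for because it is the letters TFEB and TFE3 are known to bind. RefSeq promoter windows (GRCh38.p14, 250 bases before to 50 bases after a gene's start) were matched to 57 members by symbol, with 72 windows. CACGTG, which reads the same on both strands, was present in 11 of these 72 windows (15.3%) and in 2548 of 35116 windows of all genes (7.26%). The windows of all genes include those of genes that were not tested. Among tested genes with a window, 1251 had the E-box and 8454 did not, against 10 and 41 of the tested members. The members with the E-box were ATP6V0B, ATP6V0E2, ATP6V0D1, ATP6V1G1, CTSA, CTSD, CTSF, LAMP1, ATG3 and ATG14. They included 4 of the 15 V-ATPase genes with a window, 3 of the 10 cathepsins and 2 of the 29 autophagy genes. The longer palindrome TCACGTGA, which contains the E-box, was in 6.94% of member windows and in 0.98% of all windows. The stretches below are those of the 7 genes that have an E-box and were lower after scaling, with the E-box in capitals, read 5′ to 3′ on the strand of the gene:
ATP6V0B (chr1:43974900-43974929, plus strand): ggtCACGTGgtaccggcgcatCACGTGggc
ATP6V0E2 (chr7:149872874-149872923, plus strand): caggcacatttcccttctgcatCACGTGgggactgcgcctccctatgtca
ATP6V1G1 (chr9:114587689-114587738, plus strand): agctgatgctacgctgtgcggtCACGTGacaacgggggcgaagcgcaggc
CTSD (chr11:1763957-1763986, minus strand): gccggccgcgccCACGTGaccggtccgggt
CTSA (chr20:45891290-45891318, plus strand): tgtCACGTGgcgccggagttCACGTGact
ATG3 (chr3:112561963-112561992, minus strand): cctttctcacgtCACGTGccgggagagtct
LAMP1 (chr13:113297025-113297124, plus strand): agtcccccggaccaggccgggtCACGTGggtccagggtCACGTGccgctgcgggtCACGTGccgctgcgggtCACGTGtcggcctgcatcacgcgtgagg
The LAMP1 window held 6 E-boxes, the first 4 of which lie in the stretch shown. These 7 were chosen by their calls after scaling, and of them only ATP6V1G1 and CTSD were also lower as deposited. ATP6V0D1, CTSF and ATG14, called on neither scale, are not shown. A match is a string of letters and not a measured binding site.

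Across the 61 tested members, 8 rose and 9 fell. The background over all tested genes for the same calls on both scales was 17.2% risen and 7.38% fallen, or 24.5% in either direction. As deposited, 17 members were higher and 9 lower, where 38.5% of all tested genes were higher and 7.38% lower (45.9% in either direction). After scaling, 8 members were higher and 24 lower, where 17.2% of all tested genes were higher and 21.3% lower (38.5% in either direction). The median log2 difference of the members was 0.10 as deposited and -0.13 after scaling, on either scale below the median of all tested genes. On neither scale were 20 members called. The groups did not overlap in TPM for 32 of the 61, where 56.8% of all tested genes did not overlap. Those that rose were ULK1, ATG2A, ATG4B, SQSTM1, NBR1, CTSK, ATP6V0A2 and ATP6V0D2. Those that fell were MAP1LC3B, GABARAP, GABARAPL1, GABARAPL2, ATG10, CTSD, ATP6V1F, ATP6V1G1 and ATP6V1G2. When each library was left out in turn, 4 members rose without ISLR replicate 2 or 3 and 5 without any other library, while 5 fell without NC replicate 3, 6 without ISLR replicate 3 and 7 to 9 without any other. The 8 called on both scales in each of these fits were ULK1, NBR1, ATP6V0D2, MAP1LC3B, ATG10, CTSD, ATP6V1F and ATP6V1G2.

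**Figure D1:**
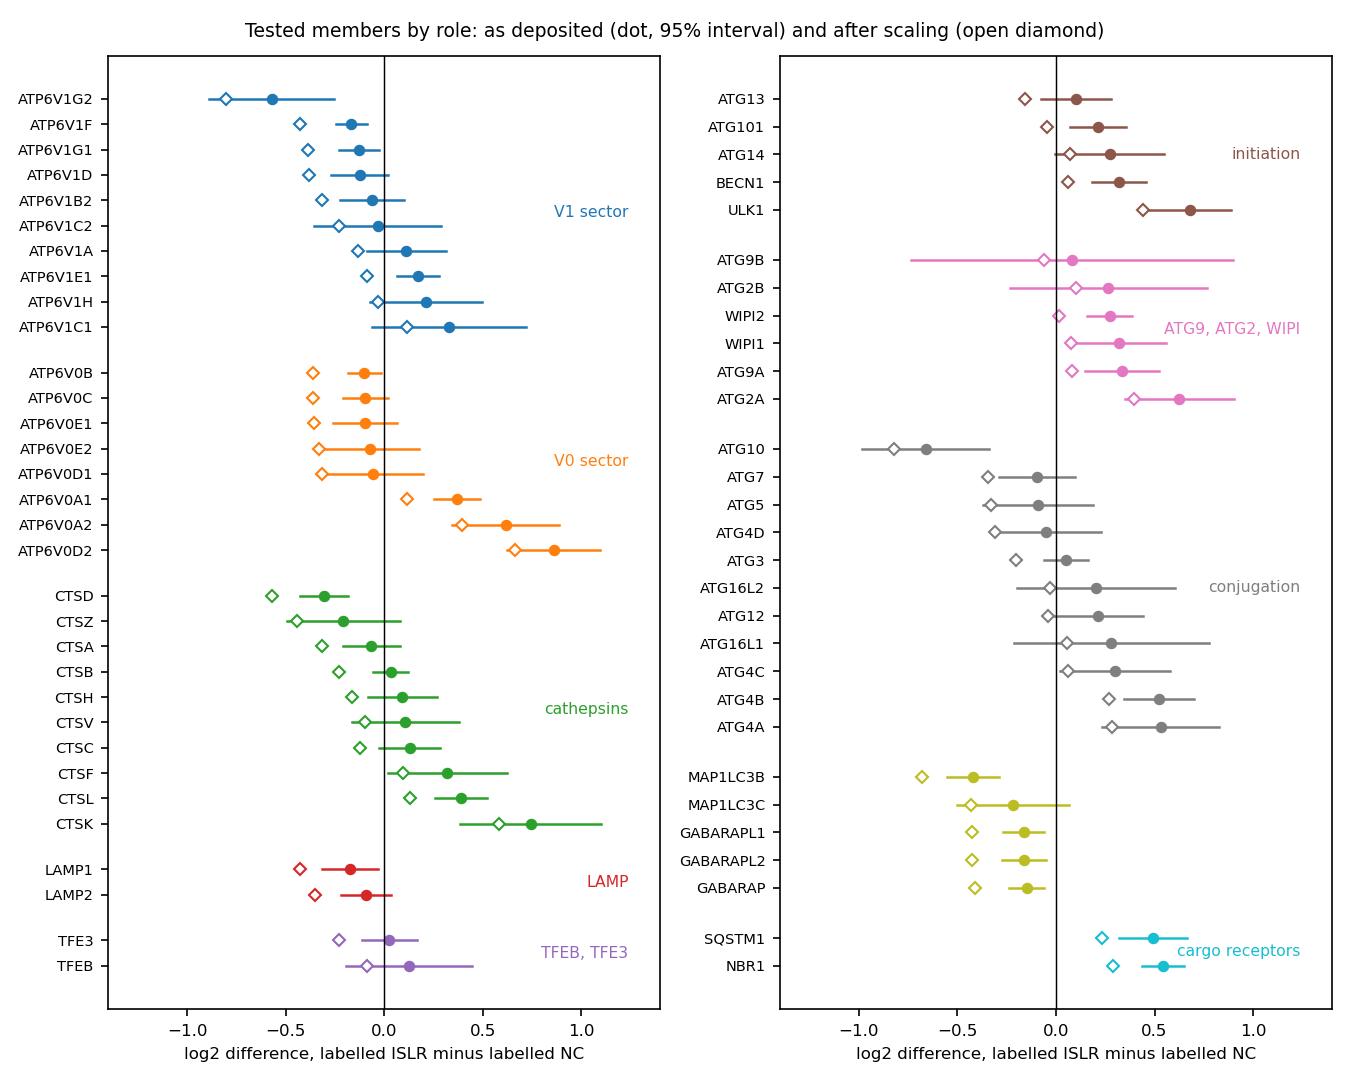
Log2 difference, labelled ISLR minus labelled NC, of log2(TPM + 1) for the 61 tested members, grouped by role. Filled dots with bars are values as deposited with their 95% interval, and open diamonds are values after median-of-ratios scaling. Genes with no role beside them are given singly. The 2 cargo receptors lie right of 0 on both scales, while many other members cross 0 with the scale.

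ULK1, the kinase that starts autophagosome formation (chr12:131894651-131923167, plus strand, GENCODE 29 on GRCh38, as for the other gene spans here), rose. ULK1 stood at 12.38, 12.95 and 13.00 TPM labelled ISLR and 8.53, 7.02 and 7.34 TPM labelled NC, with no overlap. The log2 difference was 0.68 as deposited (95% interval 0.47 to 0.89, adjusted p = 0.00118) and 0.44 after scaling (0.23 to 0.64, adjusted p = 0.00725). BECN1, the scaffold of the autophagy lipid kinase, was higher as deposited only. It was at 66.01, 66.92 and 63.76 TPM labelled ISLR and at 48.50, 55.76 and 52.87 TPM labelled NC, and these groups were also apart. The fitted log2 difference was 0.32 as deposited (adjusted p = 0.00434) and 0.06 after scaling (95% interval -0.09 to 0.21, adjusted p = 0.482). Exons of BECN1 overlap PSME3, on the opposite strand at up to 83.99 TPM.

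ATG101, a partner of ATG13 in the ULK1 complex, was at 47.93, 53.91 and 49.91 TPM labelled ISLR and 45.75, 42.29 and 42.33 TPM labelled NC. Every library labelled ISLR was above every one labelled NC, but the log2 difference was 0.21 as deposited (adjusted p = 0.0248) and -0.04 after scaling (adjusted p = 0.571). The deposited call was lost without ISLR replicate 2 or 3 or NC replicate 2 or 3 (adjusted p 0.0577 to 0.0726). ATG14, which directs BECN1 to autophagy, was called on neither scale, at 3.55, 3.69 and 3.70 TPM labelled ISLR and 3.02, 2.41 and 3.15 TPM labelled NC (log2 difference 0.27 as deposited, adjusted p = 0.0952; 0.07 after scaling, adjusted p = 0.648). The groups of ATG14 did not overlap. Of all tested genes, 38.5% were higher and 7.38% lower as deposited, and 17.2% were higher and 21.3% lower after scaling. Of the 5 initiation genes, 3 were higher as deposited and 1, ULK1, after scaling, and none was lower on either scale at this threshold. Their summed level was 181.2, 188.61 and 173.21 TPM labelled ISLR against 151.25, 151.27 and 151.19 TPM labelled NC, with BECN1 and ATG101 holding most of it alongside ATG13. After scaling this sum overlapped between groups (154.55 to 170.75 TPM labelled ISLR, 163.44 to 166.72 TPM labelled NC).

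ATG2A, which carries lipid from the endoplasmic reticulum into the growing membrane, rose. ATG2A was at 8.30, 10.83 and 8.32 TPM labelled ISLR and 5.76, 5.25 and 5.61 TPM labelled NC, with ISLR replicate 2 the highest and no overlap. On the log2 scale the difference was 0.63 as deposited (95% interval 0.35 to 0.90, adjusted p = 0.00478) and 0.39 after scaling (0.12 to 0.66, adjusted p = 0.0319). The call after scaling was lost when any library other than ISLR replicate 3 was left out (adjusted p 0.0518 to 0.0838), and with quantile normalization (adjusted p = 0.0671).

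ATG9A, the scramblase whose vesicles seed the membrane, was at 26.96, 31.15 and 31.51 TPM labelled ISLR and 22.93, 22.29 and 25.14 TPM labelled NC. Its groups were apart, with a log2 difference of 0.33 as deposited (adjusted p = 0.0133) and 0.08 after scaling (adjusted p = 0.401). WIPI2, the phosphoinositide reader that recruits the conjugation machinery, was at 46.54, 47.71 and 48.61 TPM labelled ISLR and 40.34, 39.73 and 37.72 TPM labelled NC. It too was higher as deposited only, with 0.27 (adjusted p = 0.00374) against 0.01 after scaling (95% interval -0.10 to 0.13, adjusted p = 0.834). WIPI1, its relative, was at 12.68, 11.72 and 13.98 TPM labelled ISLR and 8.99, 10.20 and 11.01 TPM labelled NC. The difference for WIPI1 was 0.32 as deposited (adjusted p = 0.0365) and 0.08 after scaling (adjusted p = 0.569), and its deposited call was lost without ISLR replicate 1 or 3 or NC replicate 1 or 2 (adjusted p 0.0718 to 0.113). In all, 4 of the 6 lipid supply genes were higher as deposited and 1 after scaling, and none was called lower. The shares of all tested genes were 38.5% higher and 7.38% lower as deposited, and 17.2% and 21.3% after scaling. ATG2B and ATG9B were called on neither scale, at means of 1.35 to 1.95 TPM.

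The protease ATG4B, part of the conjugation machinery, rose, and ATG10, the enzyme that joins ATG12 to ATG5, fell. ATG4B was at 29.53, 33.79 and 35.13 TPM labelled ISLR and 23.29, 22.26 and 21.89 TPM labelled NC, with no overlap. This gave a log2 difference of 0.52 as deposited (95% interval 0.35 to 0.70, adjusted p = 0.00165) and 0.27 after scaling (0.11 to 0.43, adjusted p = 0.0181). After scaling the call was lost without ISLR replicate 2 or 3 or NC replicate 3 (adjusted p 0.0575 to 0.0628). Exons of ATG4B overlap THAP4, which lies on the opposite strand at up to 61.82 TPM, and strand handling in the authors' counting is unknown here. Further members also have exons that overlap a gene on the opposite strand. Among them are CTSA (PLTP, up to 39.57 TPM), ATG7 (VGLL4, up to 14.57 TPM), MAP1LC3B (FBXO31, up to 11.17 TPM) and ATP6V0A2 (AC117503.4, up to 3.27 TPM).

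ATG10 (chr5:81972025-82276857, plus strand) was at 1.42, 0.89 and 1.28 TPM labelled ISLR and 2.43, 2.49 and 2.44 TPM labelled NC, and the groups were apart. In log2 terms the groups differed by -0.66 as deposited (95% interval -0.98 to -0.34, adjusted p = 0.00721) and -0.82 after scaling (-1.14 to -0.50, adjusted p = 0.00336). ISLR replicate 2 was under 1 TPM, so only the group where ATG10 was high met the filter by itself, which favours a call of fallen. The low value of ATG10 is also uncertain, because an exon of ATG10 overlaps RPS23 on the opposite strand. RPS23, a ribosomal protein gene, stood at 6281 ± 150 TPM labelled ISLR and 6692 ± 282 TPM labelled NC (mean ± SD, n = 3 each), and its part in the result was not tested.

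ATG4A, a second protease of that kind, was at 13.78, 14.80 and 16.96 TPM labelled ISLR and 9.30, 9.23 and 12.20 TPM labelled NC. It was higher as deposited (log2 difference 0.53, adjusted p = 0.0126) and not called after scaling (0.29, adjusted p = 0.0954), where it passed without NC replicate 3 (adjusted p = 0.0237). ATG4C was at 11.35, 9.55 and 13.05 TPM labelled ISLR and 9.62, 8.57 and 8.66 TPM labelled NC, and its groups overlapped (0.30 as deposited, adjusted p = 0.0739; 0.06 after scaling, adjusted p = 0.709); without ISLR replicate 2 it passed as deposited (adjusted p = 0.0249). Among the 11 conjugation genes, 2 were higher and 1 lower as deposited, and 1 was higher and 3 lower after scaling. All tested genes had shares of 38.5% higher and 7.38% lower as deposited, and 17.2% and 21.3% after scaling. The E1-like enzyme ATG7 and the E2-like enzyme ATG3 were lower after scaling only (ATG7 -0.10 as deposited and -0.35 after scaling, ATG3 0.05 and -0.21). Their mean TPM as deposited, labelled ISLR first, was 15.99 ± 1.46 against 17.1 ± 0.68 for ATG7 and 40.95 ± 1.30 against 39.4 ± 0.63 for ATG3.

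MAP1LC3B (chr16:87383995-87404779, plus strand), whose protein is used to mark autophagosomes, fell. It was at 42.91, 44.60 and 43.96 TPM labelled ISLR and 58.36, 55.85 and 63.08 TPM labelled NC, with no overlap. The log2 difference was -0.42 as deposited (95% interval -0.55 to -0.29, adjusted p = 0.00116) and -0.68 after scaling (-0.80 to -0.56, adjusted p = 0.000167). MAP1LC3B2 is a near copy, whose longest open reading frame differs from that of MAP1LC3B at 2 of 378 positions (99.5% identity), so reads could be split between them; it was listed at 0.57 TPM at most.

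GABARAP, which acts in autophagosome growth and closure, fell. It was at 317.66, 320.98 and 312.36 TPM labelled ISLR and 333.69, 355.48 and 366.26 TPM labelled NC. On the log2 scale the difference was -0.15 as deposited (adjusted p = 0.0173) and -0.41 after scaling (95% interval -0.51 to -0.31, adjusted p = 0.000475). The libraries of GABARAP labelled ISLR were all below those labelled NC.

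GABARAPL1 and GABARAPL2 fell as well. GABARAPL1 was at 126.46, 134.11 and 139.30 TPM labelled ISLR and 148.54, 145.94 and 153.63 TPM labelled NC, with a log2 difference of -0.16 as deposited (adjusted p = 0.0209) and -0.43 after scaling (adjusted p = 0.000228). GABARAPL2 was at 144.11, 140.55 and 133.90 TPM labelled ISLR and 165.20, 149.41 and 154.26 TPM labelled NC, with -0.16 as deposited (adjusted p = 0.0295) and -0.42 after scaling (adjusted p = 0.00119). Both sets of libraries were apart. The deposited calls were near the threshold: that of GABARAP was lost without ISLR replicate 3 or NC replicate 2 or 3 (adjusted p 0.0515 to 0.0587), that of GABARAPL1 without ISLR replicate 1 or NC replicate 3 (adjusted p = 0.0524 and 0.0671), and that of GABARAPL2 without ISLR replicate 2 or 3 or NC replicate 1 or 3 (adjusted p 0.0587 to 0.0936). Without limma's trend and robust options these 3 genes also missed the threshold as deposited (adjusted p = 0.0849, 0.0729 and 0.0886), and with no filter on low values so did GABARAPL1 (0.0503) and GABARAPL2 (0.0698). The calls after scaling held with each library left out.

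MAP1LC3C, known for a role in selective autophagy of bacteria, was at 3.63, 4.22 and 4.16 TPM labelled ISLR and 4.68, 5.58 and 4.25 TPM labelled NC. This gave a log2 difference of -0.22 as deposited (adjusted p = 0.179) and -0.43 after scaling (adjusted p = 0.0275), a call lost without any one of the ISLR replicates or without NC replicate 1 or 2 (adjusted p 0.0545 to 0.0821). MAP1LC3A was listed at 0 in all 6 libraries.

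**Figure D2:**
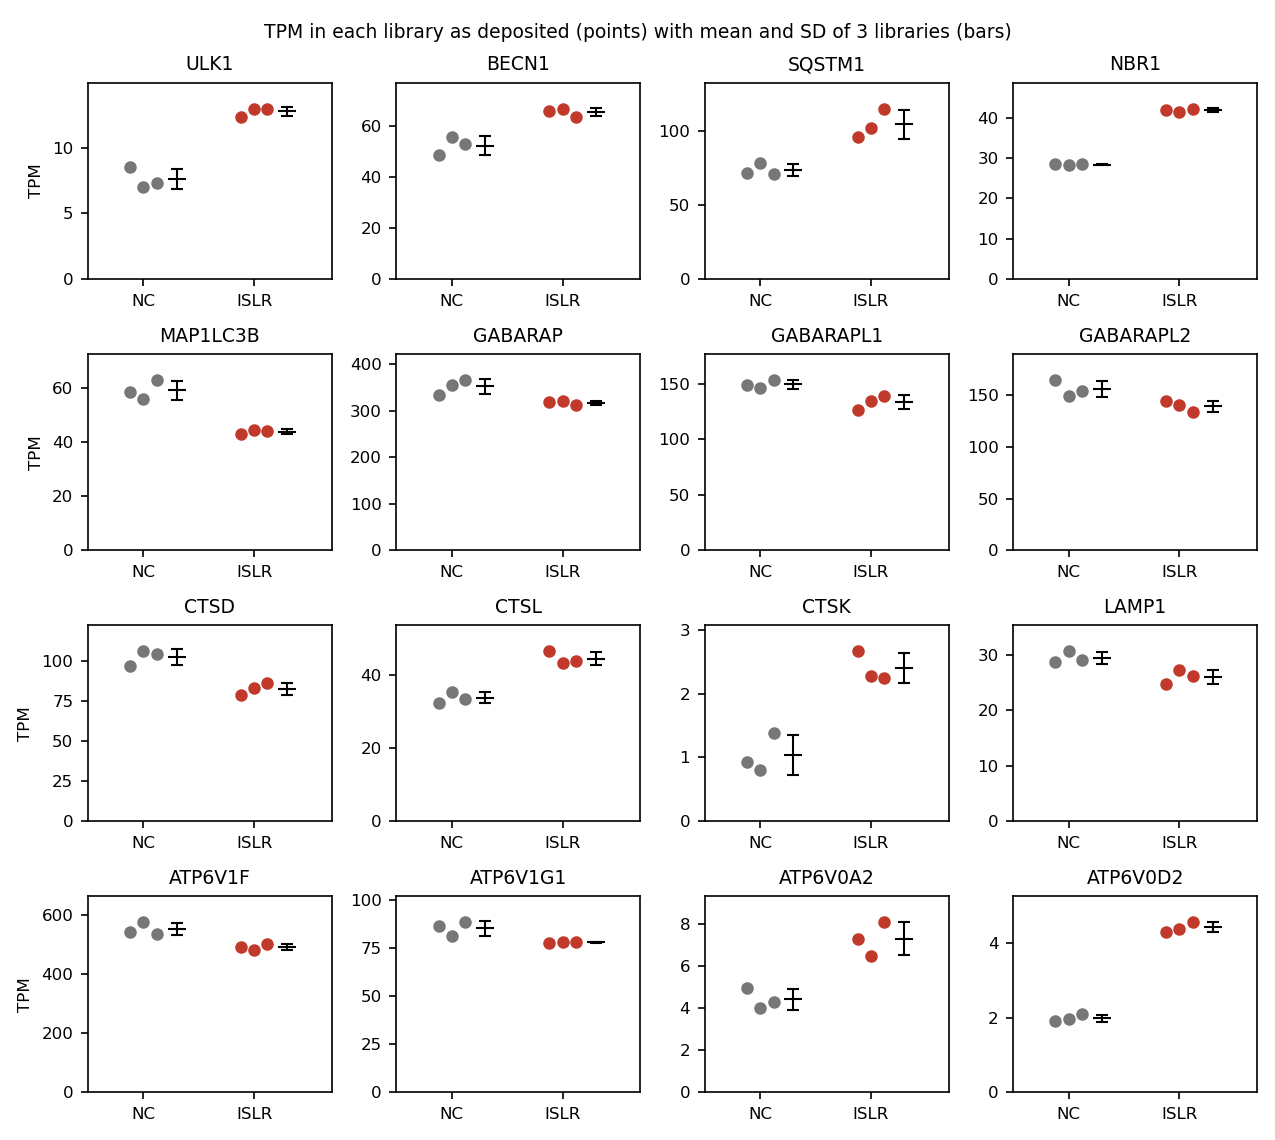
TPM as deposited of 16 members in each of the 6 libraries, with the mean and SD of the 3 libraries of a group as bars and the vertical axis starting at 0. ULK1, SQSTM1, NBR1 and ATP6V0D2 are higher in libraries labelled ISLR with no overlap, and MAP1LC3B, GABARAP and CTSD are lower with no overlap.

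SQSTM1 (p62) and NBR1, which hold ubiquitinated cargo, both rose. NBR1 (chr17:43170481-43211689, plus strand) was at 41.93, 41.39 and 42.31 TPM labelled ISLR and 28.43, 28.28 and 28.48 TPM labelled NC, groups with little spread and no overlap. In log2 terms the groups differed by 0.54 as deposited (95% interval 0.44 to 0.65, adjusted p = 0.000242) and 0.29 after scaling (0.18 to 0.39, adjusted p = 0.0026). SQSTM1 (chr5:179806398-179838078, plus strand) was at 96.18, 102.32 and 115.38 TPM labelled ISLR and 72.01, 78.66 and 71.21 TPM labelled NC, again with no overlap. The fitted log2 difference was 0.49 as deposited (95% interval 0.32 to 0.67, adjusted p = 0.00192) and 0.23 after scaling (0.07 to 0.39, adjusted p = 0.0345). The call of SQSTM1 after scaling was lost without ISLR replicate 2 or 3 or NC replicate 1 or 3 (adjusted p 0.0626 to 0.099). Exons of SQSTM1 overlap MGAT4B and MRNIP on the opposite strand, which reached 90.04 and 31.99 TPM. Those of NBR1 overlap AC060780.1, on the opposite strand at up to 13.5 TPM.

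Neither of the transcription factors TFEB and TFE3 was called as deposited. TFEB, the low member of the pair, was at 3.94, 5.38 and 4.10 TPM labelled ISLR and 3.84, 3.64 and 4.49 TPM labelled NC, overlapping groups with a log2 difference of 0.13 as deposited (95% interval -0.19 to 0.45, adjusted p = 0.477) and -0.09 after scaling (-0.40 to 0.22, adjusted p = 0.638). TFE3 was at 34.81, 37.01 and 35.80 TPM labelled ISLR and 37.09, 35.51 and 33.13 TPM labelled NC. Its groups overlapped, with 0.03 as deposited (adjusted p = 0.744) and -0.23 after scaling (adjusted p = 0.02). The latter call was lost without ISLR replicate 1 or 3 or NC replicate 1 or 2 (adjusted p 0.0547 to 0.0641). Both proteins are regulated mainly by where they are in the cell, which RNA does not show. The relatives MITF, at 0.99 ± 0.16 TPM labelled ISLR and 0.65 ± 0.11 TPM labelled NC, and TFEC, listed at 0 in all 6 libraries, were too low to test.

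LAMP1 and LAMP2, the main glycoproteins of the lysosomal membrane, were lower after scaling only. LAMP1 was at 24.66, 27.23 and 26.18 TPM labelled ISLR and 28.66, 30.70 and 29.08 TPM labelled NC, groups that did not overlap. The log2 difference was -0.17 as deposited (95% interval -0.32 to -0.03, adjusted p = 0.0502) and -0.43 after scaling (-0.57 to -0.29, adjusted p = 0.00153). LAMP2 was at 39.26, 37.20 and 41.35 TPM labelled ISLR and 42.41, 41.33 and 41.92 TPM labelled NC, with groups that just overlapped; its difference was -0.09 as deposited (adjusted p = 0.197) and -0.35 after scaling (adjusted p = 0.00205). LAMP3, found mainly in dendritic and lung cells, was under 1 TPM on average in both groups.

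The cathepsin proteases did not move one way: CTSK rose, CTSD fell and CTSL was higher as deposited only. The summed level of the 15 genes overlapped as deposited (367.64 to 370.66 TPM labelled ISLR, 363.65 to 371.37 TPM labelled NC) and was lower in libraries labelled ISLR after scaling, with no overlap (330.72 to 341.32 against 396.38 to 406.91 TPM). CTSD, the aspartic protease of the lysosome (chr11:1752752-1764573, minus strand), was at 79.25, 83.10 and 86.48 TPM labelled ISLR and 97.30, 106.67 and 104.45 TPM labelled NC, with no overlap. This gave a log2 difference of -0.31 as deposited (95% interval -0.43 to -0.19, adjusted p = 0.00301) and -0.57 after scaling (-0.68 to -0.46, adjusted p = 0.000243). CTSL, an endopeptidase, was at 46.49, 43.06 and 43.59 TPM labelled ISLR and 32.33, 35.31 and 33.38 TPM labelled NC. It was apart in the opposite direction to CTSD, at 0.39 as deposited (adjusted p = 0.00168) and 0.13 after scaling (95% interval -0.02 to 0.28, adjusted p = 0.144).

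CTSK, known as the collagen-degrading cathepsin of osteoclasts, was low, at 2.67, 2.28 and 2.24 TPM labelled ISLR and 0.93, 0.80 and 1.39 TPM labelled NC. All 3 libraries labelled ISLR were above all 3 labelled NC, with a log2 difference of 0.74 as deposited (95% interval 0.39 to 1.10, adjusted p = 0.00672) and 0.58 after scaling (0.22 to 0.95, adjusted p = 0.0222). After scaling the call was lost when any library other than NC replicate 3 was left out (adjusted p 0.0513 to 0.0783). Of the libraries labelled NC only replicate 3 reached 1 TPM. CTSK thus entered the test through the group where it was high, which favours a call of risen. CTSF was at 5.41, 6.78 and 6.96 TPM labelled ISLR and 5.13, 4.23 and 5.35 TPM labelled NC, and was called on neither scale (0.32 as deposited, adjusted p = 0.0767; 0.10 after scaling, adjusted p = 0.549), except as deposited without ISLR replicate 1 (adjusted p = 0.0407). CTSB, the most abundant cathepsin, differed little in TPM (131.02 ± 3.52 against 128.04 ± 3.74) and was lower after scaling only, as were CTSA, the carboxypeptidase that also protects NEU1, and CTSZ (CTSA -0.06 as deposited and -0.31 after scaling, CTSB 0.03 and -0.23, CTSZ -0.21 and -0.44). The scaled call of CTSZ was lost without ISLR replicate 1 or 3 or NC replicate 2 or 3 (adjusted p 0.0739 to 0.0848). In counts, 2 of 10 tested cathepsins were higher and 1 lower as deposited, and 1 was higher and 4 lower after scaling. The background over all tested genes was 38.5% higher and 7.38% lower as deposited, and 17.2% and 21.3% after scaling. CTSE and CTSG were listed at 0 in all 6 libraries, and CTSO, and CTSS and CTSW, which are known from immune cells, were under 1 TPM on average.

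The V1 sector is the cytosolic part that splits ATP, and 3 of its 10 tested genes fell: ATP6V1F, ATP6V1G1 and ATP6V1G2. Over all tested genes 7.38% fell. ATP6V1F, a subunit of the central stalk and the most abundant V-ATPase gene here, was at 491.71, 482.05 and 500.11 TPM labelled ISLR and 542.36, 575.55 and 536.53 TPM labelled NC, with no overlap. In log2 terms the groups differed by -0.17 as deposited (95% interval -0.24 to -0.09, adjusted p = 0.00649) and -0.43 after scaling (-0.52 to -0.34, adjusted p = 0.00035). Without limma's trend and robust options ATP6V1F missed the threshold as deposited (adjusted p = 0.0547).

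ATP6V1G1 encodes the widely expressed G subunit of the outer stalks. It was at 77.91, 78.36 and 78.35 TPM labelled ISLR and 86.80, 81.21 and 88.78 TPM labelled NC, groups that were apart. The fitted log2 difference was -0.13 as deposited (adjusted p = 0.0481) and -0.39 after scaling (95% interval -0.49 to -0.29, adjusted p = 0.00056). As deposited the call was lost when any library other than NC replicate 2 was left out (adjusted p 0.0978 to 0.145).

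ATP6V1G2, the G subunit found mainly in brain (chr6:31544462-31548427, minus strand), was low, at 5.64, 4.81 and 6.85 TPM labelled ISLR and 8.13, 10.07 and 8.80 TPM labelled NC, and the groups did not overlap. On the log2 scale the difference was -0.57 as deposited (95% interval -0.89 to -0.25, adjusted p = 0.0123) and -0.80 after scaling (-1.11 to -0.49, adjusted p = 0.00354). It shares exons with the read-through gene ATP6V1G2-DDX39B, at 63.0 ± 1.67 TPM labelled ISLR and 63.4 ± 2.24 TPM labelled NC (mean ± SD, n = 3 each), so the assignment of its reads is uncertain. Exons of ATP6V1G2 also overlap NFKBIL1, on the opposite strand at up to 32.98 TPM. ATP6V1E1, an outer stalk subunit, was at 135.37, 126.07 and 138.69 TPM labelled ISLR and 121.84, 117.22 and 115.41 TPM labelled NC. It was the exception in being higher as deposited (0.17, adjusted p = 0.0192; -0.09 after scaling, adjusted p = 0.178), a call lost without ISLR replicate 1 or 3 or NC replicate 2 or 3 (adjusted p 0.0528 to 0.065). In counts, 1 V1 gene was higher and 3 lower as deposited, and none was higher and 5 lower after scaling. For all tested genes the shares were 38.5% higher and 7.38% lower as deposited, and 17.2% and 21.3% after scaling. ATP6V1B1, a kidney subunit, and ATP6V1E2, a testis subunit, stayed under 1 TPM on average in both groups, and ATP6V1G3 was listed at 0.

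The V0 sector is the proton channel in the membrane, and here ATP6V0A2 and ATP6V0D2 rose. ATP6V0D2, a d subunit best known from osteoclasts and macrophages, was at 4.31, 4.39 and 4.57 TPM labelled ISLR and 1.91, 1.96 and 2.10 TPM labelled NC. Its log2 difference was 0.86 as deposited (95% interval 0.62 to 1.10, adjusted p = 0.000757) and 0.66 after scaling (0.43 to 0.89, adjusted p = 0.00217), the largest difference above 0 among the tested members on both scales. ATP6V0D1, the widely expressed d subunit, was called on neither scale, at 34.1 ± 2.71 TPM labelled ISLR and 35.7 ± 5.17 TPM labelled NC (mean ± SD, n = 3 each), although it was lower after scaling without NC replicate 1 (adjusted p = 0.0394).

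The a subunits steer the pump to its compartment, and ATP6V0A1 and ATP6V0A2 were higher as deposited, TCIRG1 (the a3 subunit, outside the naming rule) was not called on either scale, and ATP6V0A4, the form of kidney intercalated cells, stayed under 1 TPM. ATP6V0A2, the Golgi and endosome form, was at 7.33, 6.52 and 8.12 TPM labelled ISLR and 4.97, 4.02 and 4.29 TPM labelled NC, with no overlap. In log2 terms the groups differed by 0.62 as deposited (95% interval 0.35 to 0.89, adjusted p = 0.00471) and 0.39 after scaling (0.13 to 0.66, adjusted p = 0.0301), the latter call being lost without ISLR replicate 1 or 3 or NC replicate 2 or 3 (adjusted p 0.0788 to 0.0979) and with quantile normalization (adjusted p = 0.0606). ATP6V0A1 was at 31.83, 32.07 and 32.02 TPM labelled ISLR and 23.89, 25.05 and 24.58 TPM labelled NC. These narrow groups gave 0.37 as deposited (adjusted p = 0.00126) and 0.12 after scaling (95% interval -0.0026 to 0.23, adjusted p = 0.109).

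ATP6V0B, a proteolipid of the rotor ring, was at 134.83, 140.77 and 142.10 TPM labelled ISLR and 152.58, 145.77 and 149.77 TPM labelled NC, with no overlap. It was not called as deposited (-0.10, adjusted p = 0.055) and was lower after scaling (-0.36, 95% interval -0.44 to -0.29, adjusted p = 0.000254). ATP6V0C, the other ring proteolipid measured, and the small subunits ATP6V0E1 and ATP6V0E2 were likewise lower after scaling only (-0.36, -0.35 and -0.33, against -0.10, -0.10 and -0.07 as deposited). For ATP6V0E2 the call was lost without any one of the ISLR replicates (adjusted p 0.0585 to 0.12). In counts, 3 of 8 tested V0 genes were higher and none lower as deposited, and 2 were higher and 4 lower after scaling. Among all tested genes 38.5% were higher and 7.38% lower as deposited, and 17.2% and 21.3% after scaling. As deposited, the summed TPM of the V0 genes overlapped between groups (607.9 to 665.4 labelled ISLR, 644.78 to 692.19 labelled NC), whereas that of the V1 genes did not (789.73 to 822.99 against 851.91 to 876.17). After scaling both sums were lower in libraries labelled ISLR with no overlap (V0 564.37 to 593.71 against 697.03 to 762.9 TPM, V1 714.97 to 747.53 against 920.94 to 965.68 TPM).

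**Figure D3:**
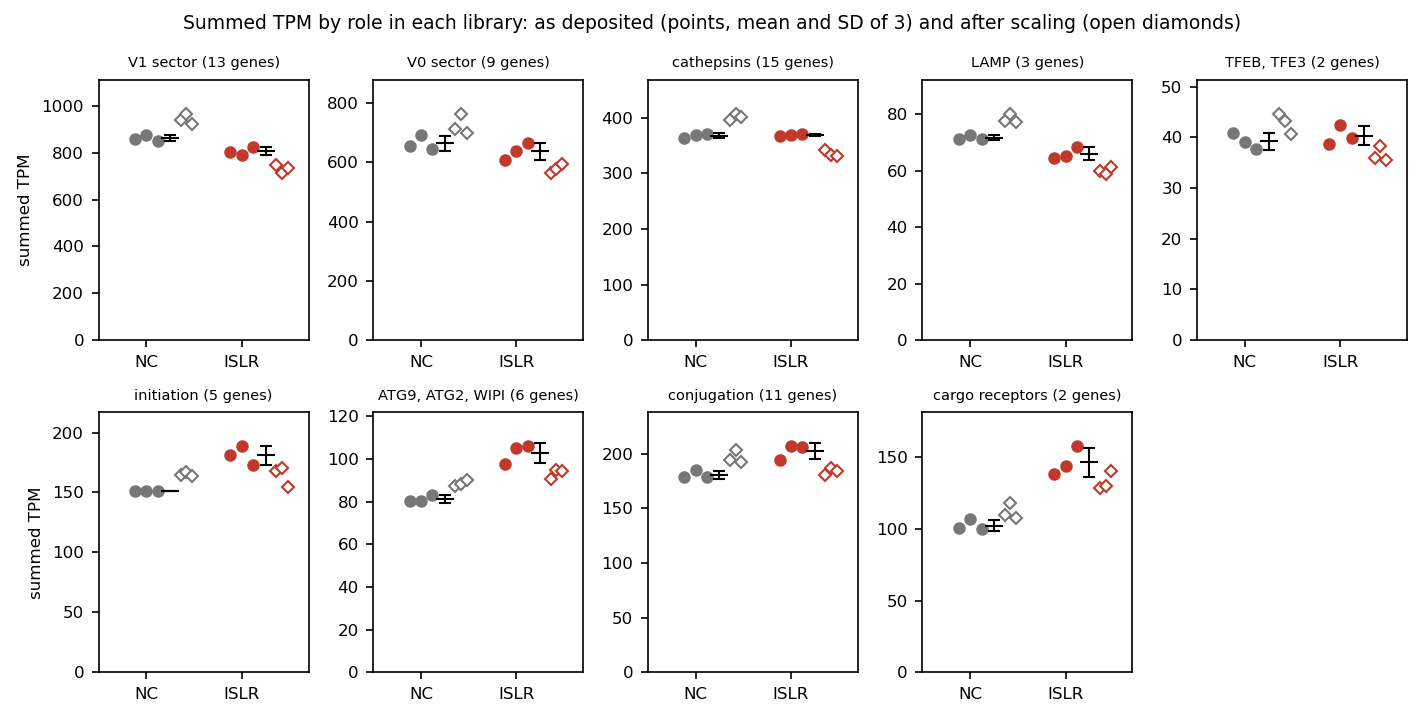
Summed TPM of the members of 9 roles in each of the 6 libraries, as deposited (points, with the mean and SD of 3 libraries as bars) and after median-of-ratios scaling (open diamonds), with axes starting at 0. On both scales the cargo receptor and lipid supply sums are higher in libraries labelled ISLR and the V1 and LAMP sums lower; the other sums overlap on one scale or, for conjugation, turn from higher to lower with scaling. No test was made on these sums.

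The counts of the V-ATPase, cathepsin and autophagy genes are set side by side here. Of all tested genes, 17.2% rose and 7.38% fell. As deposited 38.5% were higher and 7.38% lower, and after scaling 17.2% were higher and 21.3% lower. Of 18 tested V-ATPase genes, 2 rose and 3 fell; 4 were higher and 3 lower as deposited, 2 higher and 9 lower after scaling, with a median log2 difference of -0.06 and -0.31. Of 10 tested cathepsins, 1 rose and 1 fell, with medians of 0.10 and -0.15. Of 29 tested autophagy genes, 5 rose and 5 fell; 11 were higher and 5 lower as deposited, 5 higher and 8 lower after scaling, with medians of 0.21 and -0.03. The 5 lower autophagy genes as deposited became 3 without ISLR replicate 3 and 2 without NC replicate 3. The autophagy median was thus nearest to that of all tested genes (0.22 and -0.01), and the difference between the classes was not tested.

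Members with and without an E-box in their promoter window were also counted. Of the 10 tested members with one, none was higher and 7 (70%) were lower after scaling, with a median log2 difference of -0.32. Of the 41 tested members with a window and no E-box, 6 were higher and 13 (31.7%) were lower, with a median of -0.09. Over all tested genes with a window the lower share was 23.6% of 1251 genes with an E-box and 22.4% of 8454 without one. The higher share was 18.8% and 18%. As deposited, 2 of the 10 (ATP6V1G1 and CTSD) were lower and none higher, against 7 lower and 15 higher of the 41. Over all tested genes with a window 7.11% were lower and 42.8% higher with an E-box, and 7.52% and 41.3% without one. These are counts of few genes, without a test.

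Length and level moved with the differences. Among all tested genes the median log2 difference after scaling was -0.21 below a length of 1500 nt and 0.08 from 5500 nt upwards, and it was 0.09 below 5 TPM and -0.29 from 100 TPM upwards. Members had medians of -0.36 (7 members below 1500 nt) and 0.11 (6 members from 5500 nt) at the ends of the length range. By level their medians were -0.06 (11 members below 5 TPM), 0.01 (16 members from 5 to 20 TPM), -0.16 (20 members from 20 to 50 TPM), -0.36 (6 members from 50 to 100 TPM) and -0.39 (8 members from 100 TPM), so that the highest median was not at the lowest level. Spearman's rho of the scaled difference with length was 0.379 over the 61 members, 0.566 over the 18 V-ATPase genes, 0.44 over the 29 autophagy genes and 0.199 over all tested genes. With mean TPM rho was -0.393, -0.608, -0.198 and -0.257 in the same order. These correlations are across genes measured in the same 6 libraries, which are not independent. The V1 genes are short (median length 2058 nt) against 3342 nt for all tested genes, and the part of length or level in the results was not tested.

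**Figure D4:**
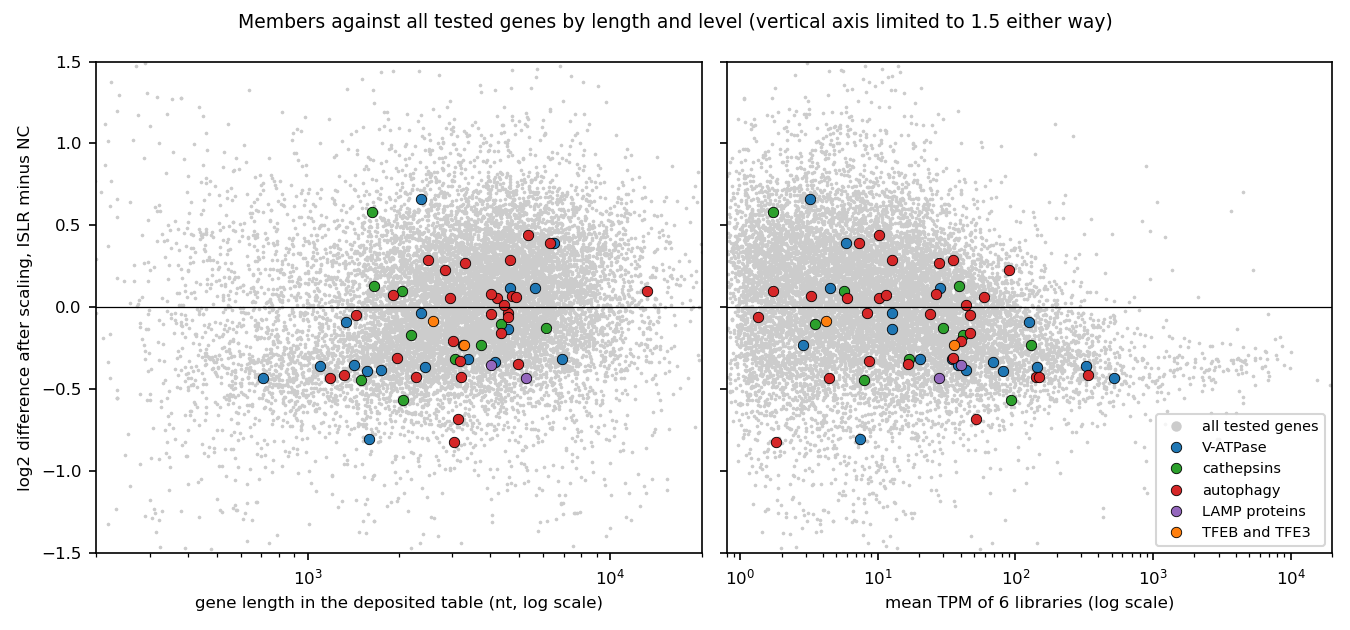
Log2 difference after median-of-ratios scaling, labelled ISLR minus labelled NC, against gene length in the deposited table (left, nt, log scale) and mean TPM of the 6 libraries (right, log scale), for all tested genes (grey) and for the 61 members by class (colours). The vertical axis is limited to 1.5 either way, so some grey points lie outside it. Short and abundant genes lie lower, and the 8 members from 100 TPM upwards all lie below 0.

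Other genes of the same pathways, from lists chosen by function, were read in the same way, against the background of 17.2% risen and 7.38% fallen over all tested genes (38.5% and 7.38% as deposited, 17.2% and 21.3% after scaling). The counts are of few genes a list, and no list was tested against this background. Among 14 genes of autophagosome-lysosome fusion, 3 rose and none fell (7 higher and none lower as deposited, 3 higher and 2 lower after scaling). Those 3 were VPS18 and VPS39, subunits of the HOPS tether, and the SNARE SNAP29: VPS18 was at 7.70 ± 0.57 TPM labelled ISLR and 3.47 ± 0.12 TPM labelled NC, with a log2 difference of 0.96 as deposited and 0.74 after scaling (adjusted p = 0.000421 and 0.00108). VPS39 differed by 0.66 and 0.42 and SNAP29 by 0.61 and 0.36. Of 14 further genes of autophagy initiation and the PI3K complexes, 2 rose and 2 fell (8 higher and 2 lower as deposited, 2 higher and 4 lower after scaling). PIK3R4, the pseudokinase of the BECN1 complex, rose from 11.6 ± 1.22 TPM labelled NC to 21.6 ± 1.02 TPM labelled ISLR (0.85 and 0.60, adjusted p = 0.000488 and 0.00214), and its partner NRBF2 rose by 0.68 and 0.44. TMEM41B, a scramblase of the endoplasmic reticulum, was higher as deposited only (0.45, and 0.20 with adjusted p = 0.0688).

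Among 16 other autophagy receptors, 3 rose and none fell (9 higher and none lower as deposited, 3 higher and 4 lower after scaling). Over all tested genes 17.2% rose and 7.38% fell (38.5% and 7.38% as deposited, 17.2% and 21.3% after scaling). TEX264, a receptor for autophagy of the endoplasmic reticulum, was at 24.8 ± 1.19 TPM labelled ISLR and 12.8 ± 1.72 TPM labelled NC (0.91 and 0.66, adjusted p = 0.000551 and 0.00267). SEC62, a second such receptor, rose by 0.67 and 0.42, while RTN3, a further one, differed by 0.22 as deposited (adjusted p = 0.00218) and -0.04 after scaling (adjusted p = 0.385).

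Lysosomal enzymes other than cathepsins included falls and no rises: of 32 tested, 5 fell (7 higher and 5 lower as deposited, none higher and 14 lower after scaling). The shares of all tested genes were 17.2% risen and 7.38% fallen (38.5% and 7.38% as deposited, 17.2% and 21.3% after scaling). NEU1, the sialidase that CTSA holds in the lysosome, was at 42.52, 41.79 and 43.91 TPM labelled ISLR and 75.60, 72.78 and 73.08 TPM labelled NC. The fitted log2 difference was -0.77 as deposited and -1.03 after scaling (adjusted p = 6.6e-05 and 2.66e-05). GLA, the alpha-galactosidase, fell from 196.6 ± 2.47 to 161.5 ± 3.98 TPM (-0.28 and -0.54), and GUSB, the beta-glucuronidase, was higher as deposited only (0.42, adjusted p = 0.00308; 0.16 after scaling, adjusted p = 0.105). Of 18 lysosomal membrane and sorting genes, 4 rose and 2 fell (5 higher and 2 lower as deposited, 4 and 4 after scaling). The cholesterol exporter NPC1 was at 32.9 ± 1.58 TPM labelled ISLR and 20.8 ± 0.95 TPM labelled NC (0.64 and 0.38, adjusted p = 0.000429 and 0.00393), the mannose-6-phosphate receptor IGF2R differed by 0.59 and 0.34, and the sialic acid exporter SLC17A5 by 0.66 and 0.43.

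Among 12 V-ATPase accessory and assembly genes none was called on both scales (1 higher as deposited, 2 lower after scaling). Of all tested genes, 17.2% rose and 7.38% fell (38.5% and 7.38% as deposited, 17.2% and 21.3% after scaling). The assembly factor TMEM199 was higher as deposited only (0.47, adjusted p = 0.00539; 0.23 after scaling, adjusted p = 0.0873), and TCIRG1 was called on neither scale (0.40 as deposited, adjusted p = 0.0605; 0.18 after scaling, adjusted p = 0.377), nor was NCOA7 (0.50, adjusted p = 0.103; 0.32, adjusted p = 0.291). In the list of regulators of TFEB and its relatives, 7 of 9 genes were tested, of which 1 rose and 2 fell (4 higher and 2 lower as deposited, 1 and 3 after scaling). FNIP1 and FLCN form the complex through which nutrient signals hold TFEB and TFE3 in the cytoplasm, and both fell. FNIP1 was at 8.20, 7.96 and 9.41 TPM labelled ISLR and 17.71, 18.70 and 19.66 TPM labelled NC, a log2 difference of -1.05 as deposited and -1.29 after scaling (adjusted p = 0.000233 and 9.28e-05). FLCN was at 36.54, 37.23 and 40.14 TPM labelled ISLR and 44.19, 46.94 and 46.47 TPM labelled NC (-0.27 and -0.52, adjusted p = 0.00699 and 0.000385), so that both genes were apart between groups. FNIP2, the other partner of FLCN in the list, was named after its values were seen: it was higher as deposited only, at 2.04 ± 0.15 TPM labelled ISLR and 1.14 ± 0.096 TPM labelled NC (0.51, adjusted p = 0.0128; 0.35 after scaling, adjusted p = 0.059). ZKSCAN3, described as a repressor of autophagy genes, rose at a low level, from 0.54 ± 0.16 TPM labelled NC to 1.67 ± 0.43 TPM labelled ISLR (0.79 and 0.65). It reached 1 TPM only in libraries labelled ISLR, so it entered the test through the group where it was high, which favours a call of risen.

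The authors' deposited table gives an adjusted p for each gene from their own comparison. By the authors' deposited table, 41 of the 61 tested members had an adjusted p under 0.05, where 51.2% of all tested genes did; of the 41, 17 had the higher mean TPM in libraries labelled ISLR and 24 the lower. By the sign of the scaled difference the same 41 divided into 10 above 0 and 31 below 0. All 17 members called on both scales here were among these 41. Among the 2378 tested genes with a p above 0.5 in the authors' deposited table, the median log2 ratio of mean TPM was 0.29 rather than 0, so the direction by TPM need not be the direction on the authors' own scale.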

How the data were processed

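RNA libraries of HEK293FT cells (6 libraries, 3 per group) were grouped by the labels' titles. The authors deposited TPM per gene and library, with a gene length and their own p-values and adjusted p-values, per the file headers. HISAT2, Cufflinks and RSEM are named with the build GRCh38.p10, without role, per the submitters' processing notes; strand handling is not stated. TPM is set to a common total in every library, so depth is unknown and no counting interval is given. The rows with a gene name summed to 984556.7 to 987783.8 TPM per library, and what makes up the rest was not examined. After 1 blank row was left out, genes that reached 1 TPM in 3 or more libraries entered the test, on log2(TPM + 1) with limma 3.58.1 (R 4.3.3, trend and robust, group as the only term), two-sided, with Benjamini-Hochberg adjustment over all tested genes and a threshold of 0.05; intervals are 95% limits of that fit. The same fit was run after median-of-ratios scaling over genes above 0 in all 6 libraries (factors 0.907 to 1.12). It was tested on simulated data. Values in every library are given for SQSTM1, NBR1, TFEB, TFE3, ULK1, BECN1, LAMP1, LAMP2, MAP1LC3B, MAP1LC3C, GABARAP, GABARAPL1, GABARAPL2 and up to 4 genes of each role with the smallest p (1 grouping of genes is not reported here), and up to 3 genes of each pathway list are named; members given for a low level, a close relative or a call on 1 scale were chosen after their values were seen. The members, roles, lists and named-gene rule were chosen with earlier results of these data known. Alternatives were other pseudocounts and filters, quantile normalization, limma without trend and robust, a replicate block, each library left out, a stricter threshold and the authors' deposited adjusted p. Promoters are from RefSeq (GRCh38.p14), gene positions from GENCODE 29. Figures were drawn with matplotlib 3.10.9.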

Additional observations from a re-analysis of the deposited data

How the results depend on the processing

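Of all tested genes, 38.5% were called higher and 7.38% lower as deposited, and 17.2% and 21.3% after median-of-ratios scaling. By the authors' adjusted p 51.2% were called in either direction. For the other settings, fits with a library left out included, no share of all tested genes is given. Their counts of members can therefore not be set against it. As deposited, 17 members were called higher and 9 lower (V-ATPase 4 and 3, cathepsins 2 and 1, autophagy 11 and 5). With median-of-ratios scaling these became 8 and 24 (V-ATPase 2 and 9, cathepsins 1 and 4, autophagy 5 and 8), and with quantile normalization 9 and 20 (V-ATPase 2 and 7, cathepsins 2 and 3, autophagy 5 and 8). Removal of the trend with length or with expression after scaling, chosen after seeing the data, gave 7 and 24 with length (V-ATPase 1 and 9, cathepsins 2 and 4, autophagy 4 and 8) and 7 and 20 with expression (V-ATPase 2 and 7, cathepsins 1 and 3, autophagy 4 and 8). Without trend and robust 4 members were lower (V-ATPase 1, autophagy 2), and at an adjusted p under 0.01 also 4 (V-ATPase 1, autophagy 2, with 7 autophagy genes higher). By the adjusted p of the authors' deposited table, with direction by mean TPM, 24 were lower (V-ATPase 11, cathepsins 3, autophagy 8), with 4 cathepsins higher; with direction after scaling the same calls gave 10 higher and 31 lower (V-ATPase 2 and 13, cathepsins 1 and 6, autophagy 7 and 9). No filter left 3 autophagy genes lower, and a filter of 5 TPM left 1 cathepsin higher. The scale sets these counts by construction; the cause of the other changes was not tested.

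With each library left out in turn, members called higher ranged from 14 to 18 and lower from 5 to 9, V-ATPase genes from 3 to 5 and 2 to 4, cathepsins from 2 to 3 and 1 to 1, and autophagy genes from 9 to 12 and 2 to 4. The lowest counts of lower members and of lower autophagy genes came without NC replicate 3. The sign differed between deposited and scaled values for 15 of the 61 tested members. Among the members recomputed under every alternative, the difference turned below 0 for ATG101 (-0.0447), ATP6V1E1 (-0.0893), TFE3 (-0.23) and TFEB (-0.0854) with median-of-ratios scaling, for TFE3 (-0.15) and TFEB (-0.14) with quantile normalization, for BECN1 (-0.0096), TFE3 (-0.25), TFEB (-0.0642) and WIPI2 (-0.0468) with the length trend removed, for ATG14 (-0.0342), TFE3 (-0.16) and TFEB (-0.19) with the expression trend removed, and for TFE3 without NC replicate 3 (-0.0167). After removal of the length trend and of the expression trend, ATG2A (adjusted p = 0.0761 and 0.0781) and ATP6V0A2 (0.0645 and 0.0785) were no longer called, and CTSK was not called after the latter (0.056).

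Replicate numbers are shared by the groups, but deviations of same-numbered libraries correlated at 0.0201, 0.0468 and -0.0556, so the numbers were not taken to pair them. With the replicate block 16 members were higher and 8 lower (V-ATPase 4 and 2, cathepsins 2 and 1, autophagy 10 and 5); ATG101 (adjusted p = 0.0601) and ATP6V1G1 (0.0706) were no longer called.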
